A study of Homo sapiens with 35 samples.

Results

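BMP2, BMP4, BMP7, NOG, CHRD, FST, GREM1 and BAMBI encode bone morphogenetic protein (BMP) ligands and the proteins that restrain BMP and activin signalling outside the cell or at its surface. They are 8 of the 58581 genes in the count table and were chosen by name for their place in the pathway. Earlier results of these data were known when they were chosen. They were followed in H9, an established human embryonic stem cell line, that was kept in E8 medium on Matrigel and seeded as single cells for differentiation. Libraries of polyadenylated RNA were made at t0, the control at time zero, and at 6 h steps to 48 h in 3 media. BA, the mesendoderm arm, was E6 medium to which BMP4 and Activin A had been added (40 ng/mL). E6 without the 2 proteins was the spontaneous differentiation control, and E8 was the pluripotency control. The 5 groups with 3 libraries were t0, BA at 24 h, and BA, E6 and E8 at 48 h. Each of the other 20 groups had 1 library. Whether the replicates came from separate cultures is not in the labels, so p-values measure only the spread between these libraries, which may be technical.

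BMP ligands are secreted dimers that bind paired type I and type II serine/threonine kinase receptors, which phosphorylate SMAD1, SMAD5 and SMAD9. These SMADs enter the nucleus with SMAD4 and act at GC-rich and GTCT elements of target genes such as the ID genes. Noggin (NOG), chordin (CHRD) and gremlin (GREM1) bind the ligands outside the cell, follistatin (FST) binds activins tightly and some BMPs, and BAMBI is a membrane protein that resembles a type I receptor without its kinase. Several of these inhibitors are themselves known BMP targets. In the early embryo BMP signalling acts with Nodal and WNT in forming the primitive streak, and in human pluripotent cells BMP4 with an activin-type ligand is a common way to induce mesendoderm.

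On GRCh38 (GENCODE release 29) the ligand genes are BMP2 on chromosome 20 at 6767664 to 6780280 (plus strand), BMP4 on chromosome 14 at 53949736 to 53958761 (minus strand) and BMP7 on chromosome 20 at 57168748 to 57266629 (minus strand). The secreted antagonists are NOG on chromosome 17 at 56593699 to 56595590 (plus strand), CHRD on chromosome 3 at 184380073 to 184390736 (plus strand), FST on chromosome 5 at 53480409 to 53487134 (plus strand) and GREM1 on chromosome 15 at 32717974 to 32745107 (plus strand). The decoy receptor gene is BAMBI on chromosome 10 at 28677342 to 28682939 (plus strand).

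The promoter letters of 3 members are shown because these genes behaved differently in BA: BAMBI and GREM1 were already high at 6 h, and CHRD stayed low throughout. RefSeq windows of the 250 bases before a gene start (GRCh38.p14) were found for BMP4, CHRD, FST, GREM1 and BAMBI, 5 of the 8 members. The single motif searched was GGCGCC, a GC-rich element of the kind that BMP-activated SMADs are known to bind. It reads the same on both strands, so 1 search covers both. Only the bases that lie before the GENCODE gene start are printed, 5′ to 3′, with the motif in capitals.
BAMBI, chr10:28677271-28677341, + strand: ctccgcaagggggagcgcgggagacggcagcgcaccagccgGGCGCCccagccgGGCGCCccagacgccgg
GREM1, chr15:32717754-32717973, + strand: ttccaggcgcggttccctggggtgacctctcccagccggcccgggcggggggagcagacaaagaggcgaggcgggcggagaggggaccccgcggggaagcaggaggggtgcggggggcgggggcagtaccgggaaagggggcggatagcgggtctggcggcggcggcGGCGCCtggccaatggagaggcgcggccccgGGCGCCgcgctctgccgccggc
CHRD, chr3:184379804-184380053, + strand: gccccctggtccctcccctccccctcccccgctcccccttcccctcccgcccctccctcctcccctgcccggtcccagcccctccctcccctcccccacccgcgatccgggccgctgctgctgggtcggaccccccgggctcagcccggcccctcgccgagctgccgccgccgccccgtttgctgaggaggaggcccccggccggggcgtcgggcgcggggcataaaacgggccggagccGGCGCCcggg
The BAMBI window held 3 copies, at bases 42, 55 and 70, of which the printed 71 bases contain 2 whole ones. The upstream of the 2 GREM1 windows held 2 copies, at bases 168 and 199, and the other, inside the annotated gene, held none. The CHRD window held 1, at base 241. One of the 3 BMP4 windows held 1 copy at base 19, inside the annotated gene, and the FST window held none. Among 35116 RefSeq windows of 250 bases, 16.4% held at least 1 copy, 3.08% at least 2 and 0.527% at least 3. A match describes these letters and is not a measured binding site. NOG, also above the controls at 6 h in BA, had no window, and a link between copies and early response was not tested.

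The libraries held 11793453 to 37191969 counts, and levels are given as CPM, the counts of a gene per 1000000 of its library, with library sizes scaled by the trimmed mean of M-values (TMM). The t0 libraries carried the 6 pluripotency markers (summed level 3994 to 5219 CPM) and almost none of the 5 primitive streak and mesendoderm markers in the table (1.09 to 1.25 CPM summed). In BA at 48 h the latter summed to 107 to 1875 CPM, and the 6 pluripotency markers to 2020 to 5139 CPM. Replicate 1 and the single libraries formed 1 series that stood apart from replicates 2 and 3: the main axis of variation held 59.8% of the variance and placed the 10 libraries of replicates 2 and 3 between 56.3 and 63.9 and the other 25 between -32.2 and -11.2. The labels do not name this split as a batch. In some single libraries markers also departed from neighbouring hours. CDH1, the epithelial cadherin, was 18.6 and 25.1 CPM in E8 at 18 and 36 h against 98.3 at 24 h. In BA it was 129 CPM at 36 h, 22.6 at 42 h and 42.3 at 48 h in replicate 1. Both late hours were thus low in that series. Replicates 2 and 3 of BA at 48 h had CDH1 at 423 and 441 CPM, against 152 and 141 CPM at t0. POU5F1, a pluripotency factor, was 1241 CPM in E6 at 18 h against 566 at 12 h. In these bulk samples, fewer cells of a type and less RNA per cell cannot be told apart.

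The earliest onsets in BA, by the rule given below, were those of inhibitors. BAMBI, the decoy receptor, was 14.8 CPM in replicate 1 at t0 and then 175, 256, 297, 289.8, 350.4, 391, 194 and 350.3 CPM at successive 6 h steps in BA. Over the same hours it lay between 7.78 and 30.6 CPM (median 16.6) in E6 and between 9.96 and 24.5 CPM (median 14.6) in E8. The lowest BA value after t0 was thus above every control value, and the dip at 42 h fell in the BA library with the lowest CDH1. At 48 h, with CDH1 at 42.3 CPM in replicate 1, BAMBI was again at 350.3 CPM.

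NOG, the secreted BMP antagonist noggin, was under 1 CPM outside BA in the series of replicate 1 and single libraries. Replicate 1 at t0 had 0.692 CPM, and BA had 8.43 CPM at 6 h, 21.4 at 12 h, 22.8 at 18 h, 47.4 at 24 h, 51.5 at 30 h, 31.0 at 36 h, 4.59 at 42 h and 26.1 at 48 h. E6 ranged from 0.122 to 0.899 CPM and E8 from 0.154 to 0.750 CPM in the same series, with as few as 2 counts in a library. All 8 BA values lay above all 16 control values, and the drop at 42 h was in that same library. Replicates 2 and 3 at 48 h had NOG at 3.11 and 2.47 CPM in E6 and at 3.27 and 3.44 CPM in E8, above this series.

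GREM1, the antagonist gremlin 1, had its highest value first. It went from 7.19 CPM in replicate 1 at t0 to 73.3 CPM at 6 h in BA, followed by 57.1, 24.1, 35.1, 32, 21.6, 10.04 and 18.7 CPM. E6 held 1.41 to 7.08 CPM and E8 1.32 to 5.75 CPM. BAMBI and NOG, in contrast, reached their highest values at 36 h and 30 h.

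By the onset rule given below, the ligand genes began to rise in BA later than these inhibitors. The order did not hold for the peaks, since BMP7 had its highest value before NOG (30 h) and BAMBI (36 h). BMP7 was 14.0 CPM in replicate 1 at t0 and in BA 20.3, 35.3, 59.7, 74.1, 57.2, 22.9, 9.30 and 11.4 CPM from 6 to 48 h, with the highest value at 24 h. BMP4 was 2.93 CPM at t0 and in BA 4.40, 7.20, 10.9, 15.4, 12.7, 31.6, 52.7 and 222 CPM. BMP2 was 3.78 CPM at t0, 1.96 CPM at 6 h and 1.83 CPM at 12 h in BA, and stood at 2.81 CPM at 18 h and 5.59 CPM at 24 h. It then read 42.7, 152, 289 and 416 CPM at 30, 36, 42 and 48 h, and the later the hour from 24 h on, the higher was BMP2. These are transcripts of the endogenous genes, and the BMP4 protein added to the medium is not measured here.

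Follistatin was well expressed before induction. FST was 61.3 CPM in replicate 1 at t0 and 102, 87.0, 86.9, 166, 214.6, 222, 184 and 216 CPM in BA. E6 stayed at 29.9 to 55.2 CPM up to 36 h and then showed 98.8 CPM at 42 h and 134 CPM at 48 h, while E8 ended at 30.4 CPM. CHRD, chordin, never exceeded 7.27 CPM, its value in BA at 48 h. Its range was 1.56 to 7.27 CPM in BA, 1.32 to 3.91 CPM in E6 and 1.32 to 2.99 CPM in E8.

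Onset was taken as the first hour at or above 5 CPM and at least 4 times the mean of the 3 t0 libraries (1 CPM added to both) provided that the next hour met the same limits. By that rule NOG, GREM1 and BAMBI began at 6 h, BMP7 at 12 h, BMP4 at 18 h, FST at 24 h and BMP2 at 30 h in BA. CHRD met it at no hour, and no member met it in E6 or E8. The last hour, 48 h, has no next hour and so could not be an onset. There CHRD in BA (7.27 CPM, against a t0 mean of 1.01) was within the level limits. The t0 mean includes replicates 2 and 3, which stand apart from the series. Against replicate 1 of t0 alone, a base chosen after seeing the data, NOG, GREM1 and BAMBI stayed at 6 h and BMP2 at 30 h, BMP7 moved to 18 h and BMP4 to 36 h, and FST met the rule at no hour. Each hour rests on 1 library, so the onsets have no replicate check.

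**Figure D1:**
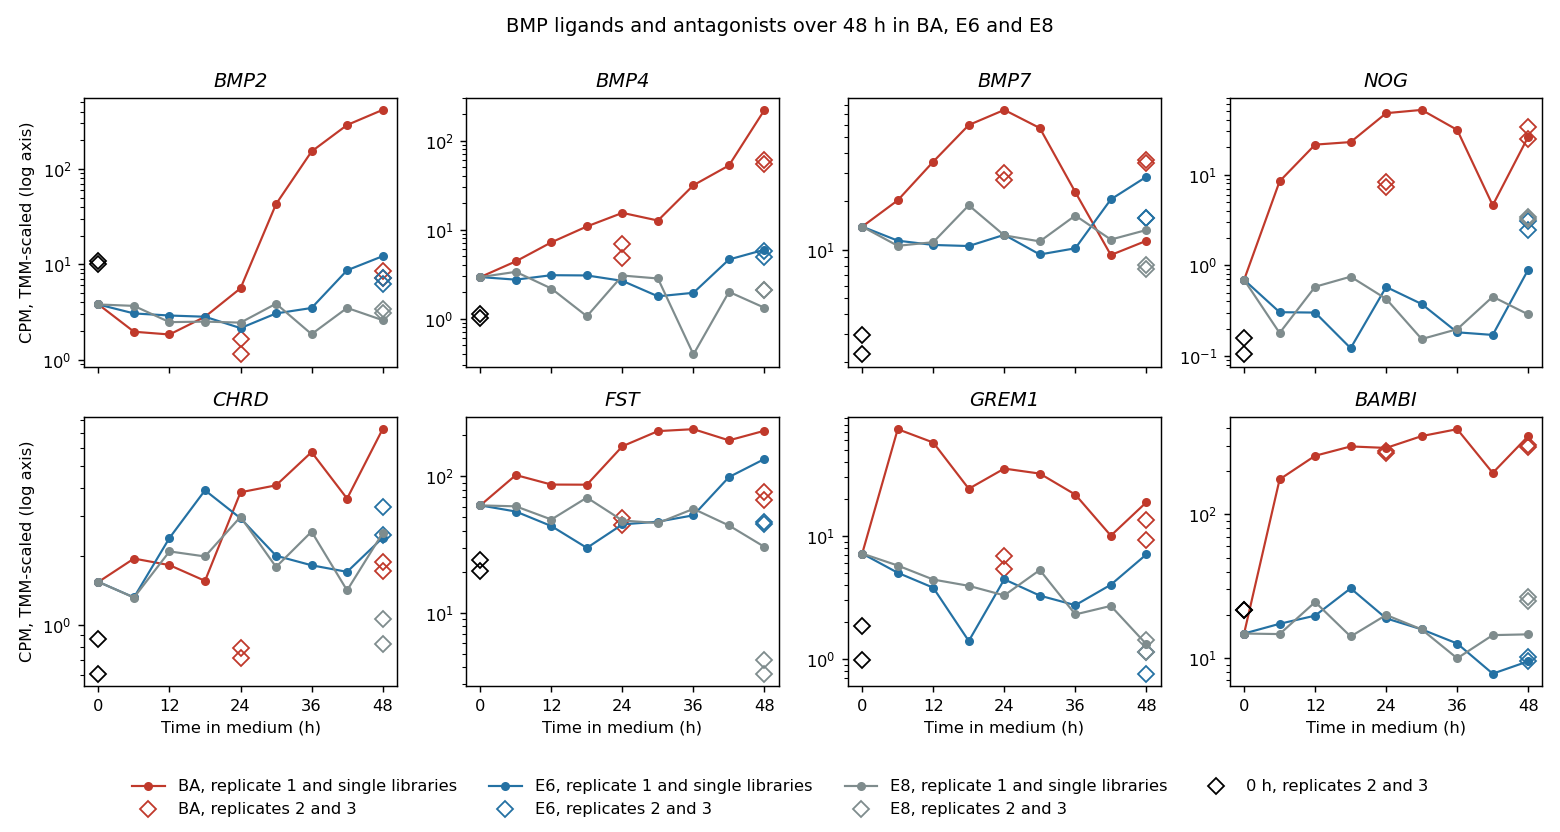
Level of each of the 8 genes (CPM, TMM-scaled, log axis) against hours in BA (red), E6 (blue) and E8 (grey); lines join replicate 1 and the single libraries, and open diamonds are replicates 2 and 3 (black at t0). BAMBI, NOG and GREM1 are above both controls from 6 h, whereas BMP2 leaves the controls at 30 h and reaches 416 CPM in replicate 1 but 7.15 and 8.47 CPM in replicates 2 and 3.

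The time courses of BA and E6 were tested over all 22 libraries from 6 to 48 h with a smooth curve of time, by edgeR's quasi-likelihood test with Benjamini-Hochberg adjustment over 19902 genes. Of the 8 members, 6 passed an adjusted p of 0.05, all 6 higher in BA on average, against 12.3% of all genes tested in either direction and 6.57% higher in BA. Each adjusted p tests any difference between the curves, in level or in shape, and not the average set beside it. Averaged over time, BAMBI was higher by 4.15 on the log2 scale (17.7-fold, adjusted p = 1.07e-10 by edgeR) and NOG by 5.73 (53.2-fold, adjusted p = 4.19e-05). GREM1 was higher by 2.89 (adjusted p = 0.00455 by edgeR), BMP4 by 2.50 (3.11e-05), BMP2 by 2.13 (0.0174) and BMP7 by 1.25 (0.0177). The other two did not pass: FST differed by 1.26 (adjusted p = 0.0845 by edgeR) and CHRD by 0.28 (adjusted p = 0.454). The median over the members was 2.31, and over all genes 0.03.

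Within the series of replicate 1 and single libraries alone, the same edgeR test called all 8, where it called 28.6% of all genes, with FST at an adjusted p of 5.56e-06 and CHRD at 0.0051. With the libraries of BA at 42 h and E6 at 18 h left out, the 6 calls stood and the highest adjusted p among them was 0.0473, for BMP7. FST also passed when 1 of 3 libraries was left out: replicate 1 of BA at 48 h (adjusted p = 0.0438 by edgeR), replicate 1 of E6 at 48 h (0.0304) or replicate 2 of BA at 24 h (0.0472).

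For single hours, BA was above E6 at 8 of 8 time points for BMP4, NOG, FST, GREM1 and BAMBI, at 6 for BMP7 and CHRD, and at 5 for BMP2. The BA to E6 ratio of BMP2 was lowest at 12 h, 0.632, and highest at 36 h, 43.9. BMP7 turned the other way within the series: its ratio was 6.10 at 30 h and 0.40 at 48 h, where E6 had 28.5 CPM and BA 11.4 CPM. E6 and E8 did not separate by the same test over 20 libraries: edgeR called none of the 8 members, against 0.258% of all genes tested. At an unadjusted p under 0.05 by edgeR were 5 of 8 members, and 663 of the 19400 genes tested. Without replicate 1 of E8 at 48 h, FST alone was called, at an adjusted p of 0.0213 by edgeR.

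Levels of different genes were compared per kilobase of exon, using the joined exons of each gene in GENCODE release 29 (1.892 kb for NOG to 14.606 kb for GREM1). At t0 FST (11.9 ± 7.63 CPM per kb, SD, n = 3) and BAMBI (8.37 ± 1.70) led, followed by BMP2 (2.29 ± 1.08) and BMP7 (1.18 ± 1.21). BMP4 (0.547 ± 0.350), GREM1 (0.229 ± 0.230), NOG (0.169 ± 0.172) and CHRD (0.152 ± 0.073) were below 1 CPM per kb, and neighbours in this order overlapped in their ranges except BAMBI and BMP2. In BA at 48 h BAMBI stood highest at 137 ± 13.0 CPM per kb. FST (40.3 ± 28.1), BMP2 (39.9 ± 65.4) and BMP4 (36.4 ± 30.9) had close means, but their order differed between the sets of libraries. In replicate 1 BMP2 (115) was above FST (72.7) and BMP4 (72.0). In replicates 2 and 3 BMP2 (1.98 and 2.35) was below FST (22.4 and 25.8) and BMP4 (17.5 and 19.5). NOG had 14.8 ± 2.52, BMP7 5.07 ± 2.57, GREM1 0.947 ± 0.327 and CHRD 0.548 ± 0.477 CPM per kb.

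**Figure D2:**
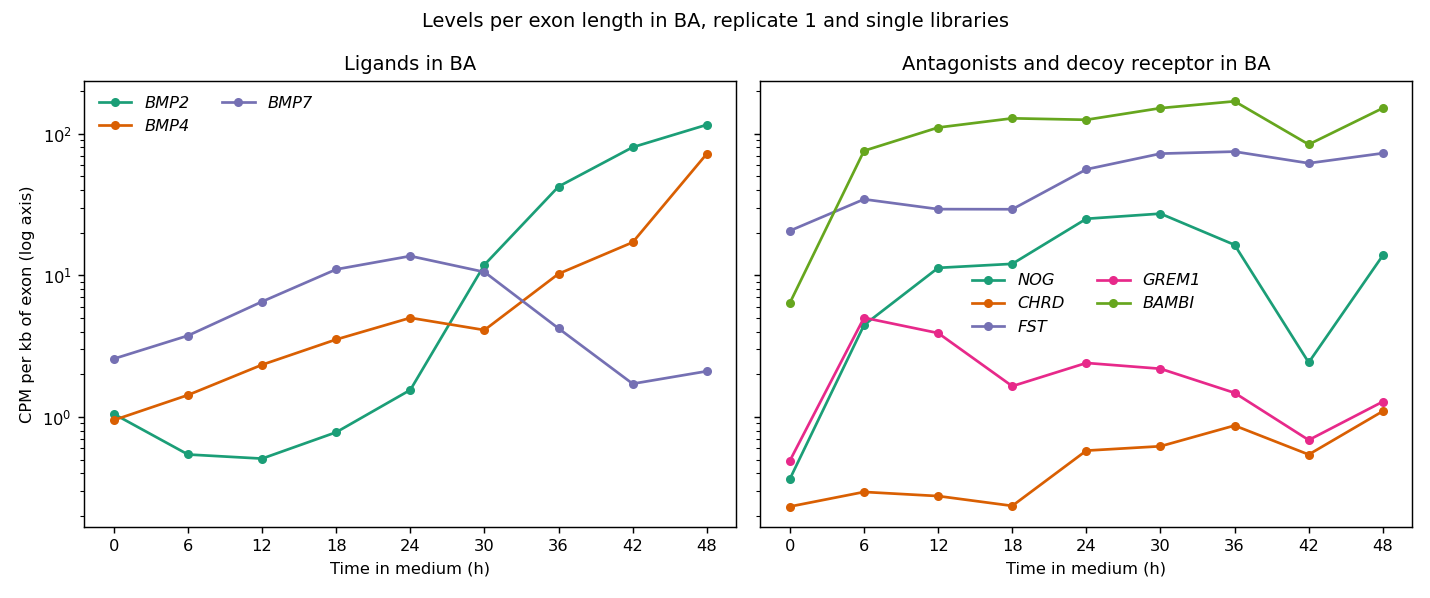
CPM per kilobase of exon (log axis) against hours in BA for the ligands (left) and the inhibitors (right), in replicate 1 and the single libraries, with t0 at 0 h. BMP7 is the highest ligand up to 24 h and the lowest at 48 h (2.10 CPM per kb), when BMP2 is at 115 and BMP4 at 72.0; BAMBI is the highest inhibitor from 6 h.

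Across the 25 libraries of this series, one per group, the members' profiles were compared on log2(CPM + 1). NOG and BAMBI had a Pearson r of 0.95, NOG and GREM1 0.88, and BMP2 and BMP4 0.89, whereas BMP2 and BMP7 had 0.04. The members did not part into separate sets: BMP4 had 0.78 with BAMBI and 0.74 with NOG, and FST 0.80 with NOG and 0.78 with BMP2. Among genes that reached 10 CPM, the profile most like NOG was that of GATA5 (r = 0.99), and those next were GATA3 and TFAP2A (0.98 for both). For BAMBI, GATA3 had an r of 0.99 and the noncoding RP11-54O7.3 one of 0.98, and GREM1 was most like ID4 (0.97), SYTL5 (0.95) and ACTC1 (0.94). BMP2 was most like BMPER (0.98), which encodes a BMP-binding endothelial regulator, then LGR5 and COLEC12 (0.97 for both). For BMP4 they were ARHGAP24 (0.95), HAPLN1 and ABHD4 (0.94 for both), for BMP7 SYT7, SALL3 (0.89 for both) and RET (0.88), and for FST TNFRSF19 (0.94), PCDH7 (0.93) and NRP2 (0.92). CHRD was most like SLC9A3R1 (0.90), CTSB (0.89) and FBLN1 (0.88). These correlations are descriptions over libraries that share media and neighbouring hours.

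The groups with 3 libraries were compared by edgeR's quasi-likelihood test on the counts of all 15 such libraries (21554 genes tested), with p-values adjusted over those genes (Benjamini-Hochberg) and calls made below 0.05. Since libraries with the same replicate number deviated together, a fit with the replicate number as a block is given wherever it changes a call, and log2 differences within replicates 2 and 3 (± SE) are given for each comparison. For BA at 24 h against t0, edgeR called 2 of the 8 members, both higher in BA, where 1.57% of all genes were called. The block raised this to 6 of 8 (8.95% of all genes), and replicates 2 and 3 alone gave 7 of 8 (20.7% of all genes). The median log2 difference was 2.32 over the members and -0.02 over all genes.

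BAMBI was 14.8, 21.6 and 21.6 CPM at t0 and 289.8, 274 and 267 CPM in BA at 24 h. The groups were far apart and the 3 BA libraries close together: BAMBI rose by 3.85 ± 0.25 on the log2 scale (SE, 14.4-fold, adjusted p = 1.17e-05 by edgeR). It was called whichever of the 6 libraries was left out. NOG was 0.692, 0.160 and 0.104 CPM at t0 and 47.4, 8.22 and 7.20 CPM in BA, with replicate 1 high on both sides. NOG rose by 6.07 ± 1.15 (SE, adjusted p = 0.0221 by edgeR). Its call was lost without replicate 1 of BA (adjusted p = 0.0612), replicate 2 of t0 (0.133) or replicate 3 of t0 (0.126), and in a fit of these 2 groups alone (0.119), all by edgeR. With the block it was 0.00604. The differences within replicates 2 and 3 were 3.67 ± 0.07 for BAMBI and 5.84 ± 0.29 for NOG.

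BMP4, BMP7, FST and GREM1 were higher in BA at 24 h in each numbered pair but did not pass in edgeR without the block. BMP4 was 2.93, 1.12 and 1.01 CPM at t0 and 15.4, 4.85 and 6.84 CPM at 24 h, with no overlap (log2 difference 2.42 ± 0.62, adjusted p = 0.0881 by edgeR, 0.00735 with the block). BMP7 was 14.0, 2.24 and 2.96 CPM against 74.1, 30.0 and 27.1 CPM, also without overlap (2.77 ± 0.71, adjusted p = 0.0875 by edgeR, 0.0107 with the block). FST differed by 1.28 ± 0.85 (adjusted p = 0.838 by edgeR, 0.0102 with the block) and GREM1 by 2.22 ± 0.95 (0.454, and 0.0161 with the block). Replicate 1 of both genes was above the other libraries at t0 and at 24 h alike, and their groups overlapped. BMP7 was also called by edgeR without replicate 1 of t0 (adjusted p = 0.0213). Within replicates 2 and 3 the differences were 2.47 ± 0.19 for BMP4, 3.48 ± 0.13 for BMP7, 1.10 ± 0.12 for FST and 2.15 ± 0.30 for GREM1, all called there.

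BMP2 was the member for which the 2 sets of libraries disagreed at 24 h. It was 3.78, 9.999 and 10.9 CPM at t0 and 5.59, 1.13 and 1.63 CPM in BA, so it was higher in BA in replicate 1 and lower in replicates 2 and 3. The pooled difference was -1.59 ± 1.2 (SE, adjusted p = 0.924 by edgeR), and within replicates 2 and 3 it was -2.89 ± 0.19 (adjusted p = 2.41e-06 by edgeR). CHRD differed by 0.79 ± 0.74 (adjusted p = 1 by edgeR), and by 0.05 ± 0.29 within replicates 2 and 3.

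**Figure D3:**
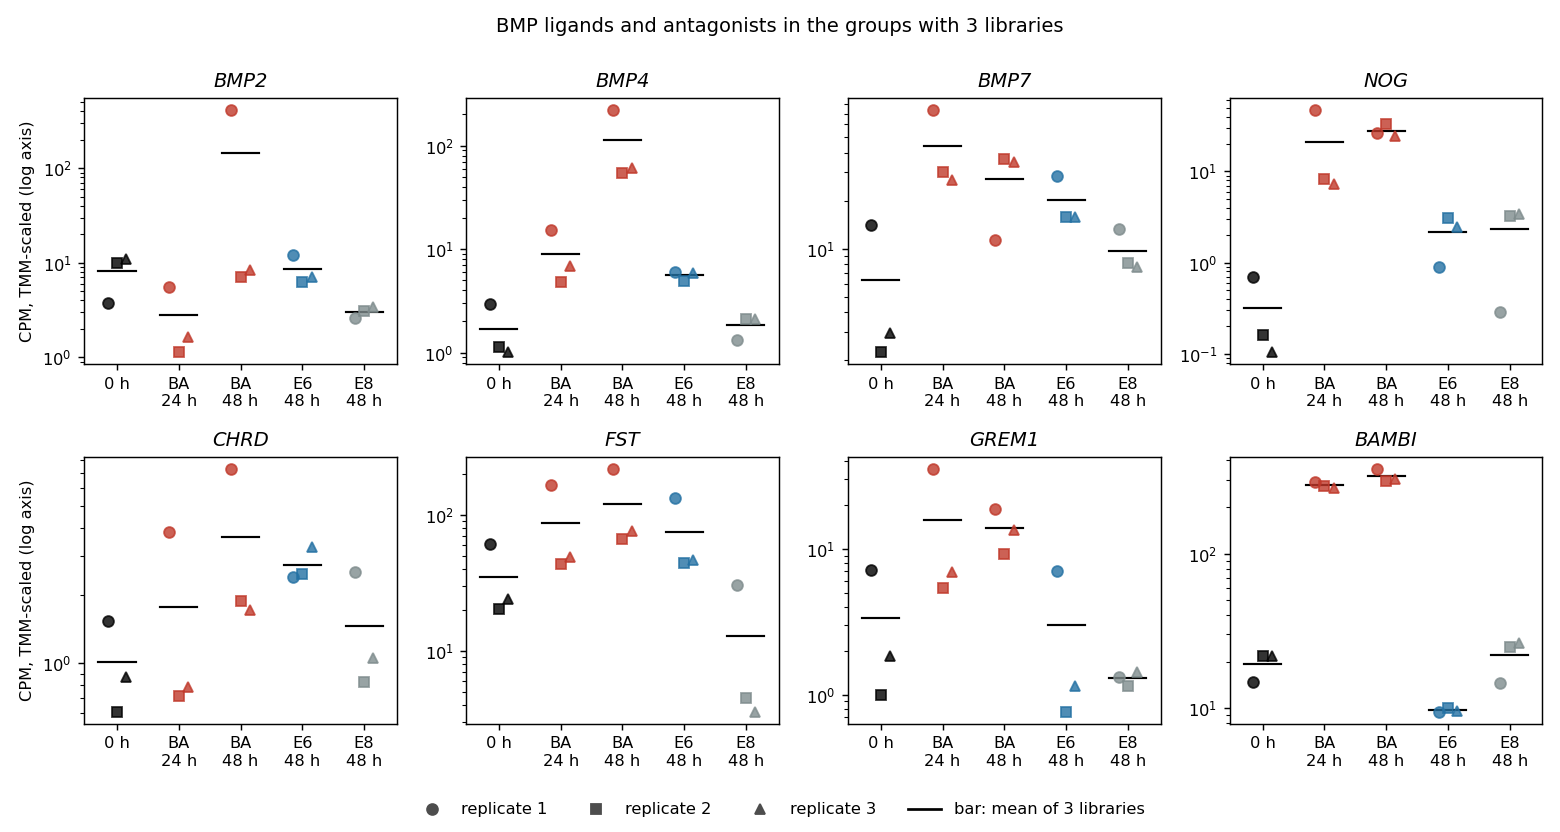
CPM (TMM-scaled, log axis) of the 8 genes in the 5 groups with 3 libraries; circles, squares and triangles are replicates 1, 2 and 3, and the bar is their mean. The 3 libraries of BAMBI lie close together in the BA groups, whereas replicate 1 of BMP2 in BA at 48 h (416 CPM) is far above replicates 2 and 3.

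Between 24 h and 48 h in BA, edgeR called 1 of the 8 members, BMP4, where 0.455% of all genes were called. The block gave 2 of 8 (10% of all genes), and replicates 2 and 3 alone gave 7 of 8, all higher at 48 h (34.1% of all genes). The median log2 difference was 0.51 over the members and 0.03 over all genes. BMP4 was 15.4, 4.85 and 6.84 CPM at 24 h and 222, 54.0 and 60.2 CPM at 48 h. The groups did not overlap, and the ratio in replicate 1 was 14.4-fold. BMP4 rose by 3.68 ± 0.64 (SE, 12.8-fold, adjusted p = 0.0303 by edgeR). The call was lost without replicate 2 of BA at 24 h (adjusted p = 0.20), replicate 3 of BA at 24 h (0.213) or replicate 3 of BA at 48 h (0.0518), and with the libraries of the 2 groups alone (0.297). With the block it was 8.84e-04, and within replicates 2 and 3 the difference was 3.31 ± 0.16.

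BMP2 was 5.59, 1.13 and 1.63 CPM at 24 h and 416, 7.15 and 8.47 CPM at 48 h. All 3 pairs were higher at 48 h, but by 74.4-fold in replicate 1, and the log2 difference was 5.75 ± 1.42 (adjusted p = 0.114 by edgeR, 0.0346 with the block). Within replicates 2 and 3 it was 2.52 ± 0.19 (adjusted p = 5.24e-06 by edgeR). In replicates 2 and 3, however, BMP2 at 48 h was still below its level at t0 (9.999 and 10.9 CPM). Only in replicate 1 was BMP2 at 48 h above t0 (3.78 CPM). Primitive streak markers differed in the same libraries: EOMES was 1017 CPM in replicate 1 of BA at 48 h against 42.3 and 44.3 CPM in replicates 2 and 3, and MIXL1 was 701 CPM against 31.97 and 37.4 CPM. All 5 markers of that list were above 1 CPM in at least 1 library of BA at 48 h, and none was at 0 there. The part of these markers in the BMP2 difference was not tested.

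BMP7, GREM1 and NOG were lower at 48 h than at 24 h in replicate 1 and higher in replicates 2 and 3. BMP7 was 74.1 CPM at 24 h and 11.4 CPM at 48 h in replicate 1, but 30.0 and 27.1 CPM at 24 h and 36.2 and 34.8 CPM at 48 h in replicates 2 and 3 (pooled -0.61 ± 0.66, adjusted p = 0.97 by edgeR, within replicates 2 and 3 0.34 ± 0.11, adjusted p = 0.0345). GREM1 was 35.1 and then 18.7 CPM in replicate 1, and 5.39 and 6.90 and then 9.19 and 13.6 CPM in the others (pooled -0.13 ± 0.90, adjusted p = 1 by edgeR, within replicates 2 and 3 0.91 ± 0.26, adjusted p = 0.0219). NOG was 47.4 and then 26.1 CPM in replicate 1 and 8.22 and 7.20 and then 33.4 and 24.4 CPM in the others (pooled 0.49 ± 0.90, adjusted p = 1 by edgeR, within replicates 2 and 3 1.93 ± 0.17, adjusted p = 1.79e-05). BAMBI differed by 0.23 ± 0.22 (adjusted p = 0.937 by edgeR), and its 3 libraries at 48 h (350.3, 293 and 305 CPM) were all above those at 24 h. Within replicates 2 and 3 the differences were 0.17 ± 0.06 for BAMBI, 1.29 ± 0.26 for CHRD and 0.64 ± 0.12 for FST.

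At 48 h, BA against E6 asks what the 2 added proteins changed. EdgeR called BMP4 and BAMBI, 2 of the 8 members, both higher in BA, where 3.52% of all genes were called. The block gave 4 of 8 (22.1% of all genes), and replicates 2 and 3 alone gave 7 of 8 (36.7% of all genes), 6 higher and 1 lower. The median log2 difference was 3.00 over the members and 0.04 over all genes. BAMBI was 350.3, 293 and 305 CPM in BA and 9.49, 10.1 and 9.59 CPM in E6, and the libraries of each group lay close together. It was higher in BA by 5.05 ± 0.27 (SE, 33.2-fold, adjusted p = 3.75e-06 by edgeR).

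BMP4 was 222, 54.0 and 60.2 CPM in BA and 5.95, 4.95 and 5.83 CPM in E6, a difference of 4.35 ± 0.66 (SE, 20.4-fold, adjusted p = 0.00355 by edgeR). The call stood whichever of the 6 libraries was left out and was lost when only these 2 groups were fitted (adjusted p = 0.0772). NOG was 26.1, 33.4 and 24.4 CPM against 0.899, 3.11 and 2.47 CPM (3.69 ± 1.001, adjusted p = 0.0686 by edgeR, 0.0136 with the block). GREM1 was 18.7, 9.19 and 13.6 CPM against 7.08, 0.764 and 1.15 CPM (2.31 ± 0.95, adjusted p = 0.25 by edgeR, 0.00258 with the block). For both antagonists the groups did not overlap. The differences from E6 within replicates 2 and 3 were 4.91 ± 0.07 for BAMBI, 3.39 ± 0.16 for BMP4, 3.36 ± 0.19 for NOG and 3.55 ± 0.31 for GREM1.

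BMP2 was 416 CPM in BA and 12.1 CPM in E6 at 48 h in replicate 1, but 7.15 and 8.47 against 6.19 and 7.12 CPM in replicates 2 and 3 (4.12 ± 1.31 pooled, adjusted p = 0.121 by edgeR, and 0.22 ± 0.16 within replicates 2 and 3, adjusted p = 0.333). BMP7 differed by 0.52 ± 0.66 (adjusted p = 0.878 by edgeR), with replicate 1 lower in BA and the other pairs higher (1.15 ± 0.11 within replicates 2 and 3). FST was 216, 66.6 and 76.5 CPM in BA and 134, 44.4 and 46.4 CPM in E6, higher in each pair (0.73 ± 0.84, adjusted p = 0.842 by edgeR, 0.0596 with the block, 0.64 ± 0.12 within replicates 2 and 3). CHRD was the member that was lower in BA within replicates 2 and 3 (-0.70 ± 0.23, adjusted p = 0.0351 by edgeR), and its pooled difference was 0.41 ± 0.72 (adjusted p = 0.94).

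Against E8 at 48 h, BA had the same 2 called members, BMP4 and BAMBI, where 2.44% of all genes were called. The block gave 6 of 8 (17.6% of all genes), and replicates 2 and 3 alone gave all 8, each higher in BA (33.1% of all genes). The median log2 difference was 3.51 over the members and 0.04 over all genes. BMP4 in E8 was 1.32, 2.10 and 2.11 CPM, a difference of 5.93 ± 0.71 (SE, 60.9-fold, adjusted p = 0.0015 by edgeR, and 0.0529 with these 2 groups alone). BAMBI in E8 was 14.6, 24.9 and 26.4 CPM, a difference of 3.87 ± 0.25 (adjusted p = 1.44e-05 by edgeR). Both calls stood whichever of the 6 libraries was left out. The comparisons of BA with E6 and with E8 share the BA libraries.

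A further 4 members were called against E8 with the block. FST was 30.4, 4.52 and 3.57 CPM in E8 (3.30 ± 0.92, adjusted p = 0.0871 by edgeR, 1.54e-05 with the block), and without replicate 1 of E8 it was called without the block too (0.0367). GREM1 was 1.32, 1.15 and 1.43 CPM in E8 (3.44 ± 0.9995, adjusted p = 0.104 by edgeR, 0.00164 with the block), and NOG 0.288, 3.27 and 3.44 CPM (3.58 ± 0.9956, 0.0875, and 0.0196 with the block). BMP2 was 2.59, 3.05 and 3.40 CPM in E8 against 416, 7.15 and 8.47 CPM in BA (5.58 ± 1.40, adjusted p = 0.0601 by edgeR, 0.0433 with the block). The BA to E8 ratio of BMP2 was 161-fold in replicate 1, whereas the difference within replicates 2 and 3 was 1.27 ± 0.17 (adjusted p = 2.85e-04 by edgeR). Without the block BMP2 was called when replicate 2 (0.0347) or replicate 3 (0.0376) of BA was left out, fits that hold replicate 1. GREM1 was also called in a fit of these 2 groups alone (0.046). For the other members the differences from E8 within replicates 2 and 3 were 4.75 ± 0.17 for BMP4, 3.54 ± 0.07 for BAMBI, 4.13 ± 0.14 for FST, 3.14 ± 0.30 for GREM1, 3.10 ± 0.18 for NOG, 2.16 ± 0.12 for BMP7 and 0.95 ± 0.25 for CHRD. BMP7 and CHRD were not called in all 3 replicates, with or without the block.

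The 2 control media were set against each other, and E8 at 48 h against t0, as the background of the design. Between E6 and E8 at 48 h edgeR called 0 of the 8 members, where 0.144% of all genes were called. At an unadjusted p under 0.05 by edgeR were 3 of 8 members, and 1017 of the 21554 genes tested. DESeq2 called 1 of the 6 members to which it gave an adjusted p, BAMBI. Over all genes it called 223 of 22970, the 8 members included. The block gave 2 of 8 (2.84% of all genes), and replicates 2 and 3 alone 6 of 8 (18.4% of all genes). The median log2 difference was 1.08 over the members and 0.001 over all genes. FST was 134, 44.4 and 46.4 CPM in E6 and 30.4, 4.52 and 3.57 CPM in E8, higher in E6 in all 3 pairs without overlap (2.56 ± 0.89, adjusted p = 0.668 by edgeR, 2.38e-04 with the block). BAMBI was lower in E6 in all 3 pairs (-1.18 ± 0.23, adjusted p = 0.0871 by edgeR, 0.00756 with the block, and 0.013 without replicate 1 of E8). The differences between E6 and E8 within replicates 2 and 3 were 3.49 ± 0.14 for FST, -1.37 ± 0.07 for BAMBI, 1.64 ± 0.24 for CHRD, 1.36 ± 0.17 for BMP4, 1.06 ± 0.17 for BMP2 and 1.01 ± 0.11 for BMP7, the 6 called, and -0.26 ± 0.19 for NOG and -0.41 ± 0.35 for GREM1. Of 4 genes for ligands that follistatin binds, INHBA, INHBC and INHBE were tested between these groups and not called, and INHBB was too low to be tested.

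E8 at 48 h against t0 gave 0 of 8 calls by edgeR, where 0.139% of all genes were called. At an unadjusted p under 0.05 by edgeR were 1 of 8 members, and 3226 of the 21554 genes tested. DESeq2 called 1 of the 6 members to which it gave an adjusted p, NOG. Over all genes it called 1228 of 22215, the 8 members included. The block gave 1, FST, which fell by 1.85 on the log2 scale (SE 0.26, adjusted p = 0.00141 by edgeR), where 25.6% of all genes were called, a share higher than that of the members. Replicates 2 and 3 alone gave 6 of 8, where 51.3% of all genes were called. The median log2 difference was 0.19 over the members and -0.01 over all genes. FST at t0 was 61.3, 20.2 and 24.2 CPM, above E8 at 48 h in each pair. BAMBI at t0 overlapped E8 at 48 h (0.21 ± 0.22, adjusted p = 0.778 by edgeR). Within replicates 2 and 3 NOG was higher in E8 at 48 h than at t0 by 4.67 ± 0.31 (adjusted p = 1.72e-06 by edgeR), from 0.160 and 0.104 CPM to 3.27 and 3.44 CPM, and replicate 1 was lower. The other differences there were 1.66 ± 0.13 for BMP7, 1.03 ± 0.20 for BMP4, 0.30 ± 0.06 for BAMBI, 0.39 ± 0.28 for CHRD, -0.08 ± 0.34 for GREM1, -1.64 ± 0.17 for BMP2 and -2.39 ± 0.13 for FST.

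**Figure D4:**
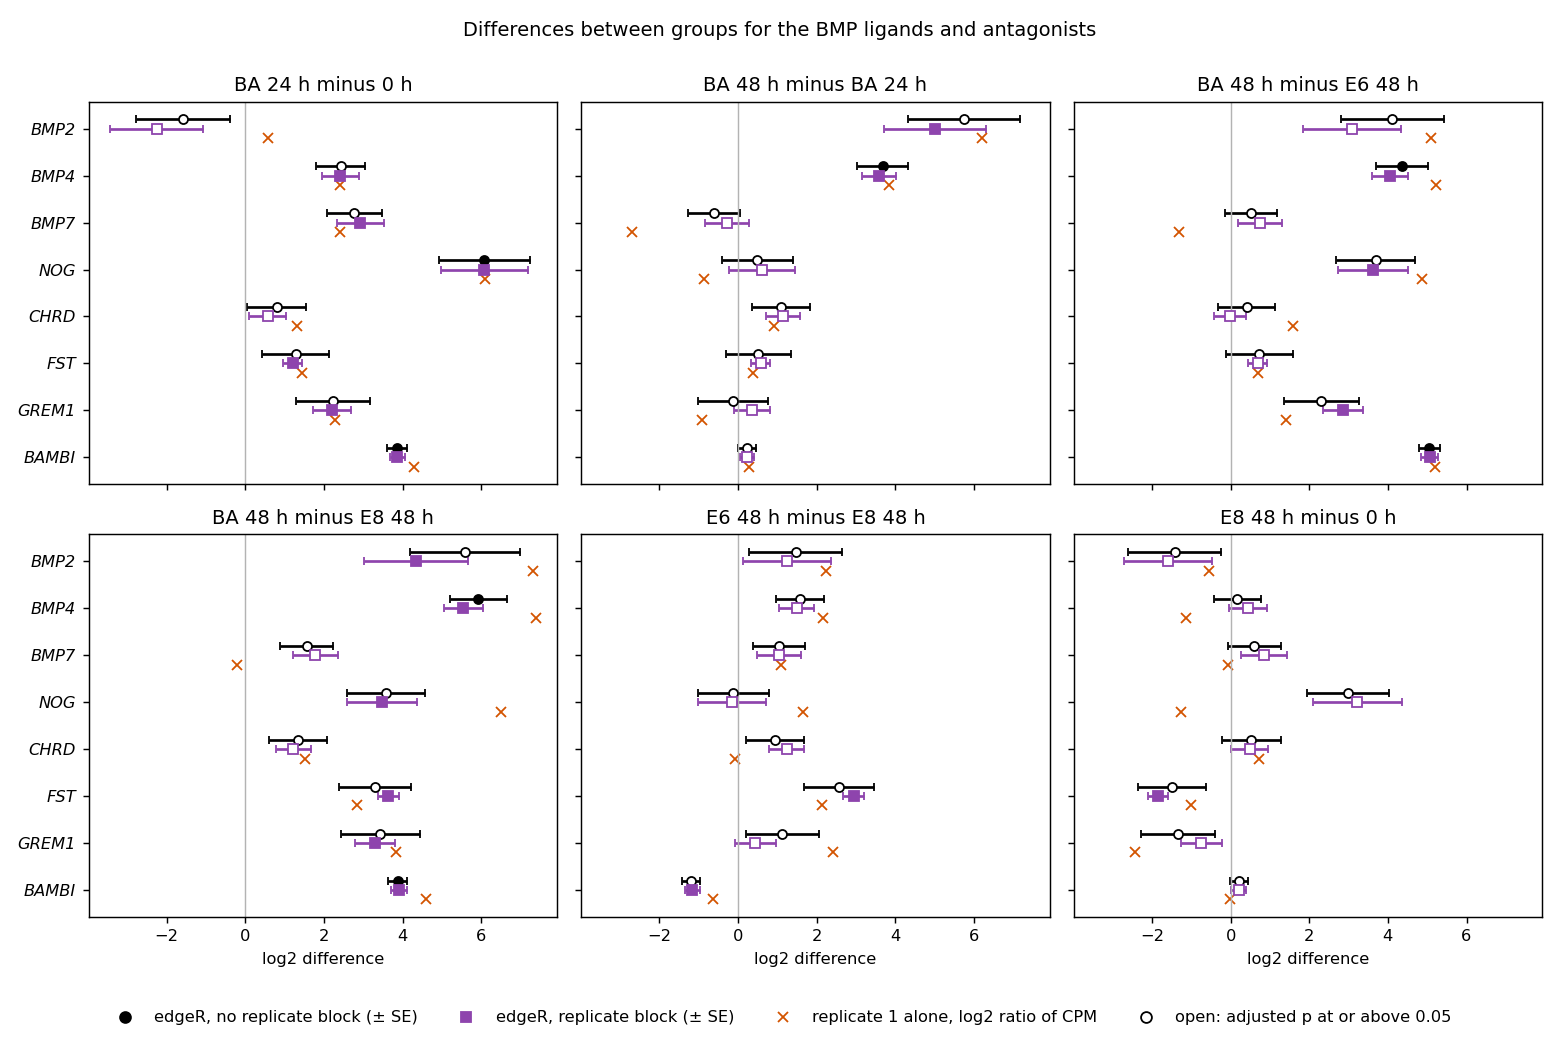
Log2 differences of the 8 genes in the 6 comparisons (first group minus second); black circles are the edgeR fit without and purple squares with the replicate block (± SE, filled where the adjusted p is below 0.05), and crosses are the ratio of the replicate 1 libraries. In BA at 48 h against E6 and E8, BMP2, BMP4, NOG, FST, GREM1 and BAMBI lie right of 0 by all 3 measures. Of these only BMP4 and BAMBI have filled circles there. BMP7 changes side between replicate 1 and the pooled fit, and CHRD against E6 is at -0.02 with the block.

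In the authors' deposited table, whose reference group is not named in its header, 4 of the 8 genes had an adjusted p below 0.05 under BA at 24 h (BMP4, BMP7, NOG and BAMBI), 4 under BA at 48 h (BMP2, BMP4, NOG and BAMBI), 4 under E6 at 48 h (BMP4, NOG, CHRD and BAMBI) and 0 under E8 at 48 h. Of the 55889 genes in the authors' deposited table, 1.62%, 3.49%, 3.85% and 1.39% were below 0.05 in the same order. The log2 fold changes of BAMBI in the authors' deposited table were 3.66, 3.97, -0.99 and 0.15 in the same order. Those of BMP4 in the authors' deposited table were 1.74, 5.08, 1.47 and 0.08.

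Other genes of the pathway were counted from lists made by name, with earlier results of these data known. Of all genes tested, edgeR called 1.26% higher and 0.315% lower in BA at 24 h than at t0, 2.03% higher and 1.49% lower in BA than in E6 at 48 h, 1.51% higher and 0.933% lower than in E8, and 6.57% higher and 5.74% lower than in E6 over the time course. Of the known BMP targets, 7 of 11 rose in BA at 24 h and 0 fell by edgeR (9 with the block), 7 were higher and 0 lower against E6 at 48 h, 9 were higher and 0 lower against E8, and all 11 were higher over the time course against E6. Their median log2 difference was 5.67 in BA at 24 h. TFAP2A, a transcription factor of surface ectoderm and amnion, was 50.4 ± 48.0 CPM in BA at 24 h and 0.110 ± 0.069 at t0 (SD, n = 3, adjusted p = 2.89e-04 by edgeR). MSX2, a homeobox gene, was 93.7 ± 52.2 against 0.247 ± 0.121 CPM, and GATA3, a GATA factor of trophoblast and amnion, 96.3 ± 89.0 against 0.402 ± 0.436 CPM. At 48 h HAND1, an early mesoderm and extraembryonic factor, was 94.3 ± 145 CPM in BA, 0.264 ± 0.115 in E6 and 0.155 ± 0.067 in E8. GATA2 was 30.7 ± 12.8 CPM in BA and 0.072 ± 0.047 in E8.

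The 6 amnion and trophoblast markers, among which GATA3, TFAP2A and HAND1 are also on the target list, summed to 121 to 482 CPM in BA at 48 h against 2.04 to 4.77 CPM in E6. All 6 were above 1 CPM in at least 1 library of BA at 48 h, against 1 of 6 in E6 at 48 h, where CDX2 was at 0. The 3 definitive endoderm markers summed to 9.10 to 205 CPM in BA at 48 h and 5.11 to 7.38 CPM in E6. The part of these cell types in the levels of BAMBI, NOG and BMP4 was not tested.

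Among the 19 other secreted modulators, 18 were tested. Among those called by edgeR in BA against E6 at 48 h, BMPER (65.98 ± 108 against 0.784 ± 0.166 CPM, SD, n = 3) and FSTL1, a follistatin-like glycoprotein (1029.99 ± 209 against 485 ± 35.9 CPM), were higher. RGMA, a BMP co-receptor, was lower (19.7 ± 7.64 against 105 ± 19.9 CPM, adjusted p = 0.0075 by edgeR). Over the time course 4 of 18 were higher and 2 lower in BA than in E6, where 6.57% of all genes were higher and 5.74% lower.

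Of 15 receptors and SMADs, all tested, 4 rose in BA at 24 h and 0 fell, and 4 were higher and 0 lower than in E6 at 48 h. SMAD6, an inhibitory SMAD, was 94.9 ± 52.9 CPM in BA at 24 h against 3.14 ± 0.68 at t0 (SD, n = 3, adjusted p = 0.00326 by edgeR). SMAD7, the other inhibitory SMAD, was 138 ± 29.4 against 41.2 ± 3.20 CPM, SMAD9 19.9 ± 22.3 against 0.978 ± 0.539 CPM and the type I receptor ACVR1 54.8 ± 2.84 against 18.3 ± 1.22 CPM. At 48 h BMPR1A, a BMP type I receptor, was 158 ± 25.5 CPM in BA and 49.97 ± 18.1 in E6 (adjusted p = 0.012 by edgeR).

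The other ligand genes gave few calls. Of 15 listed, 10 were tested between the groups with 3 libraries. One, GDF3, was called, higher in BA than in E6 at 48 h (29.2 ± 24.8 against 1.10 ± 0.31 CPM, SD, n = 3, adjusted p = 0.0193 by edgeR). Over the time course 2 of 11 were higher in BA and 1 lower.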

How the data were processed

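The authors deposited raw read counts per gene for 35 libraries, with gene symbols of GENCODE release 23. They used hg38 and featureCounts, per the submitters' processing notes, which give no versions. The aligner and the strand setting are not given in the sources used here. The authors' deposited table of log2 fold changes, p-values and adjusted p-values came from DESeq2, per the same notes. Columns were matched to samples by title. The members, gene lists and tests were chosen with earlier results of these data known.

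Counts were normalised by TMM and tested in edgeR 4.0.16 (R 4.3.3) with filterByExpr, by group over the 15 libraries of the replicated groups, with no replicate block. Time courses used a natural spline with 3 degrees of freedom and no replicate term. Alternatives were DESeq2 1.42.0, RLE size factors, no filter on low counts, the libraries of the 2 groups only, a replicate block, replicates 2 and 3 only, replicate 1 and single libraries only, a spline with 2 degrees of freedom, each replicate left out, and, chosen after seeing the data, 4 libraries that stand apart left out and replicate 1 of t0 as the base of the onset rule. The scripts were tested on simulated counts.

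The replicate numbers come from the sample titles. Deviations from the group means correlated at r = 0.587 to 0.884 in all 30 pairs of libraries with the same number, and at -0.823 to -0.645 between replicate 1 and the others. Replicates 2 and 3 also deviated together (0.561 to 0.738). This last range overlaps that of the same-number pairs, so the ranges show the split of replicate 1 and do not tell replicate 2 from 3. Centring on 3 libraries also favours negative values between replicate 1 and the others once replicate 1 stands apart. Of the 15 libraries, 14 correlated best with a library of their own number in another group. The numbers were taken to pair the libraries in the fit with the replicate block, which the labels do not state. The main fit leaves that pairing out.

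The 8 genes are always described. A pathway gene is named in a comparison if it was called there and reached 5 CPM in 1 of the 2 groups, at most 4 per direction by size of the log2 difference, pooled over lists. SMAD6, SMAD7, SMAD9, ACVR1, BMPR1A, FSTL1, BMPER and GDF3 fall outside that limit and were named after their values were seen. Some genes that these rules select are not reported here.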

Additional observations from a re-analysis of the deposited data

Results flagged for a closer look

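For 3 genes the change from t0 to 48 h had opposite signs in 2 media in every numbered pair of libraries. BAMBI changed by 4.08 on the log2 scale in BA and by -0.97 in E6, a difference of 5.05 (adjusted p = 3.75e-06 by edgeR, 1.85e-07 with the replicate block). GREM1 changed by 2.09 ± 0.94 in BA and -0.22 ± 0.92 in E6 (SE), a difference of 2.31 (adjusted p = 0.25 by edgeR, 0.00258 with the block). Its change in E6 was smaller than its SE, and replicate 1 was 7.08 CPM in E6 at 48 h against 7.19 CPM at t0. FST changed by 1.80 in BA, 1.07 in E6 and -1.49 in E8. Its difference was 3.30 between BA and E8 (adjusted p = 0.0871 by edgeR, 1.54e-05 with the block) and 2.56 between E6 and E8 (0.668, and 2.38e-04 with the block). The media share the t0 libraries.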

How the results depend on the processing

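RLE size factors and no filter on low counts left every count of called members as it was, as did the 2-degree spline and leaving out the libraries that stand apart in the time courses. The counts for BA at 24 h against t0, BA at 48 h against 24 h, BA against E6, BA against E8, E6 against E8 and E8 against t0 at 48 h were 2, 1, 2, 2, 0 and 0 in edgeR. With the replicate block they were 6, 2, 4, 6, 2 and 1, with replicates 2 and 3 only 7, 7, 7, 8, 6 and 6, with DESeq2 4, 1, 3, 4, 1 and 1, and with the libraries of the 2 groups only 1, 0, 1, 2, 0 and 0. Counts over all genes follow in the same order. DESeq2 called 818 of 22970, 645 of 21458, 1561 of 23727, 1270 of 24485, 223 of 22970 and 1228 of 22215. The 2-group fits called 114 of 19385, 0 of 19652, 76 of 20021, 47 of 19713, 0 of 20005 and 0 of 19209. The block changed no call of a member other than those given with its value above. Leaving out a replicate gave 1 to 3, 0 to 1, 2 to 2, 2 to 3, 0 to 1 and 0 to 0. In the time courses it gave 6 to 7 for BA against E6 (8 with replicate 1 and single libraries only) and 0 to 1 for E6 against E8. Over all genes such fits called 84 to 206, 3 to 175, 257 to 670, 193 to 504, 2 to 56 and 0 to 624. In the time courses they called 2028 to 2832 for BA against E6 and 14 to 100 for E6 against E8. They tested 22073 to 22316 genes, and 19133 to 20013 in the time courses. Within replicates 2 and 3, BMP7 (0.34) and GREM1 (0.91) reversed to higher at 48 h than at 24 h in BA, and CHRD (-0.70) to lower in BA than in E6. The cause was not tested. DESeq2 gave BMP2 and FST no adjusted p in any comparison, so its counts are of 6 members. With replicate 1 of t0 as the base, the onset in BA moved to 36 h for BMP4 and 18 h for BMP7, and FST had none. Each single hour rests on 1 library, NOG had as few as 2 counts in a library, and the smaller spread of replicates 2 and 3 rests on 2 libraries a group.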
